A study of Homo sapiens with 15 samples.

Results

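The genes described here are 3 classical cadherins (CDH1, CDH2 and CDH3), the mesenchymal markers VIM and FN1, and 5 transcription factors of the epithelial-mesenchymal transition (EMT), namely ZEB1, ZEB2, SNAI1, SNAI2 and TWIST1. They were chosen by symbol, with earlier results of these data known, and all 10 were found by Ensembl identifier among the 61552 genes of the deposited counts table. RNA of MDA-MB-468 cells, an established basal-like triple-negative breast cancer line, was sequenced in 15 libraries, with 3 replicates in each of 5 groups. In the drug experiment, cells starved of serum for 12 h were stimulated with EGF at 10 ng/mL and either given nothing else (EGF), treated with 10 μM cSNX1.3, a peptide that keeps EGFR from binding Sorting Nexin 1, or treated with 15 μM erlotinib, a small molecule inhibitor of the EGFR kinase, for 12 h. In the line experiment, endogenous EGFR was knocked down by an shRNA delivered with a lentivirus and induced by 1 mM IPTG, EGFR-GFP that was either wildtype (WT) or mutated in its nuclear localization sequence (ΔNLS) was introduced by transfection, and the cells received EGF. All 5 groups therefore received EGF, none received a control peptide, and cells without EGF were not analysed here. The sources used here do not say whether each line was 1 clone, at which dose or for how long the lines received EGF, or whether replicates came from separate cultures, so p-values measure only the spread between these samples, which may be technical.

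Classical cadherins hold neighbouring cells together, with CDH1 (E-cadherin) typical of epithelia, CDH2 (N-cadherin) of mesenchymal and neural cells, and CDH3 (P-cadherin) of basal epithelial cells such as breast myoepithelium. In EMT, factors of the SNAI, ZEB and TWIST families act at E-box elements to repress CDH1, while cytoskeletal and matrix genes such as VIM and FN1 rise, and EGF signalling is among the inputs known to act on this program. Basal-like breast cancer lines can express CDH1 and VIM in the same culture.

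Library totals ran from 22915676 to 35900649 counts, and each level is a count scaled for library size by TMM (CPM), with n = 3 per group. A count of 3, taken as the floor for counting error only, was worth 0.083 to 0.137 CPM depending on the library. All 15 fixed markers of a basal-like breast epithelial cell were at 1 CPM or more in every group. The summed level of these 15 genes, which include CDH1, CDH3 and EGFR, was 25520 to 31670 CPM per library in EGF, 30670 to 37530 in cSNX1.3, 15880 to 17750 in erlotinib, 24720 to 27770 in WT and 15900 to 19220 in ΔNLS. The sum was therefore lower in erlotinib and in ΔNLS than in their controls. Keratins such as KRT8 made up much of it, and not every marker fell: the means of KRT16, CDH1 and CDH3 were higher in erlotinib than in EGF, and that of EGFR was higher in ΔNLS than in WT. The 7 leukocyte markers summed to 13.99 to 19.1 CPM in EGF, 9.34 to 13.6 in cSNX1.3, 38.1 to 42.0 in erlotinib, 25.8 to 37.1 in WT and 37.9 to 42.2 in ΔNLS. Only 1 of them, CD14, was at 1 CPM or more, and it made up nearly all of this sum, with means of 16.1 CPM in EGF and 40.3 in erlotinib. The 8 fibroblast markers, of which 2 (COL1A1 and FAP) reached 1 CPM and DCN was at 0 in every library, summed to 19.4 to 21.7 CPM in EGF, 23.0 to 23.9 in cSNX1.3, 13.6 to 17.4 in erlotinib, 36.1 to 44.0 in WT and 16.9 to 18.5 in ΔNLS. The drug groups did not overlap in this sum, whose order was that of VIM, while in the EGFR lines the sum was lower in ΔNLS where VIM was higher. The 3 luminal receptor genes, with PGR at 0 in every library, summed to 53.9 to 62.7 CPM in EGF, 39.99 to 61.7 in cSNX1.3, 99.7 to 116 in erlotinib, 28.5 to 37.9 in WT and 41.1 to 42.3 in ΔNLS, and the 5 endothelial markers to 9.44 to 9.735, 8.76 to 9.80, 12.4 to 15.2, 13.9 to 15.1 and 15.6 to 16.8 CPM in the same order, so both sums were higher without overlap in erlotinib than in EGF and in ΔNLS than in WT. ERBB2 made up most of the receptor sum, with a mean of 53.4 CPM in EGF and 102 in erlotinib, and KDR made up most of the endothelial sum. The part of these differences in the results, such as those of VIM and CDH1 with erlotinib, was not tested. EGFR, the targeted gene, averaged 4733 ± 360 CPM (SD) in EGF, 6143 ± 372 in cSNX1.3, 4708 ± 246 in erlotinib, 1340 ± 168 in WT and 1727 ± 33.7 in ΔNLS, and its reads in the lines include the introduced EGFR-GFP. EGFR was higher in ΔNLS than in WT by 0.37 on the log2 scale (SE 0.09, edgeR adjusted p = 0.00367). In cSNX1.3 vs. EGF its difference was 0.38 (SE 0.11, edgeR adjusted p = 0.0622), which was not called although the groups did not overlap. It was higher with cSNX1.3 than with erlotinib by 0.38 (SE 0.11, edgeR adjusted p = 0.0102). The part of the EGFR level in the differences between the lines or the drug groups was not tested. In bulk RNA, fewer cells that express a gene and less of its RNA per cell cannot be told apart.

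VIM encodes vimentin, the intermediate filament protein of mesenchymal cells, and had the widest range of group means among the members above 1 CPM, 2.35 on the log2 scale, so the bases just upstream of its start site are shown. FN1 encodes fibronectin, a glycoprotein of the extracellular matrix, and is set beside it because its group means spanned 0.65 on that scale in the same libraries. Both stretches are RefSeq sequence on build GRCh38.p14, read 5′ to 3′ on the strand of the gene, from 250 to 21 bases before the start site. The VIM stretch is chr10:17227991-17228220 on the plus strand and the FN1 stretch is chr2:215436089-215436318 on the minus strand. Capitals mark matches to GGGCGG (the GC box of SP family factors) and TGACGTCA (the cAMP response element), searched on both strands with overlapping matches kept.
VIM: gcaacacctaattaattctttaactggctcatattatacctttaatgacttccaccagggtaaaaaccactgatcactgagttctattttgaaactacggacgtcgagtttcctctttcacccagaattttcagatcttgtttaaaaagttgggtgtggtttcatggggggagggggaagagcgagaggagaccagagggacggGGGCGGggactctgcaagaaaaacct
FN1: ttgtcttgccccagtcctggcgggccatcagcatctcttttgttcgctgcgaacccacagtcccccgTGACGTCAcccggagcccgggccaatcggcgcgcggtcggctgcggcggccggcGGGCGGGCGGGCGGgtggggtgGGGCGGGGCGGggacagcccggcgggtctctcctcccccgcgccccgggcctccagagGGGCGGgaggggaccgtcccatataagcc
The VIM stretch had a GC content of 45.2% and held GGGCGG 1 time, whereas the FN1 stretch had a GC content of 75.7% and held GGGCGG 6 times and TGACGTCA 1 time. Only 1 window per gene was searched here, so bases upstream of any other start site of VIM or FN1 are not covered. Of 35116 RefSeq promoter windows of 300 bases, 45.0% held GGGCGG or its complement and 1.85% held TGACGTCA. Neither stretch held CAGGTG or its complement CACCTG, an E-box that SNAI and ZEB factors can bind, or TGANTCA, the AP-1 element, and 20.6% and 7.71% of the windows held them. ZEB1 itself had most of the 12 promoter windows of the members, where VIM and FN1 had 1 each, so more of its bases were searched. Most of its windows held no CAGGTG, and 3 of its 4 matches on either strand lay in 1 window. The matches were at 57, 85 and 242 bases before and 34 bases after a start site. Those at 57 and 85 are shown in capitals with their flanking bases, on the plus strand at chr10:31318350-31318375 and chr10:31319121-31319146.
ZEB1 at 57: gaggtgacagCAGGTGagggccgggt
ZEB1 at 85: tgtcgtaaacCAGGTGcggtggggag
These matches are descriptions of the letters in these windows and not of bound sites. The promoter reference held windows for the 5 members VIM, FN1, ZEB1, ZEB2 and CDH2, and those of ZEB2 and CDH2 held no CAGGTG. It had none for CDH1, CDH3, SNAI1, SNAI2 and TWIST1, so the promoter of CDH1 could not be searched.

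Per kb of exonic length, CDH1 stood highest of the members in EGF cells at 15.4 CPM per kb, followed by CDH3 at 10.8, VIM at 7.99, FN1 at 2.67 and SNAI1 at 1.33. This length joins the exons of all annotated transcripts of a gene, 6076 bases for CDH1, 5176 for VIM and 17216 for FN1. It can exceed the length of the transcript made, so the order between genes depends on it. In CPM without this length, FN1 (46.0) stood above VIM (41.3). CDH2, ZEB1, ZEB2, SNAI2 and TWIST1 were each at 13 counts or fewer in every one of the 15 libraries. These MDA-MB-468 cultures thus held the 2 epithelial cadherins, the 2 mesenchymal markers and SNAI1 at measurable levels, and the other members close to the counting floor.

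CDH1 (chr16:68737292-68835537, plus strand, 16 exons, GENCODE 44 on GRCh38) was at 92.5, 97.5 and 91.1 CPM in the 3 EGF libraries and at 92.2, 82.7 and 81.2 CPM with cSNX1.3. With erlotinib it was at 133, 131 and 123 CPM. Every erlotinib library was above every EGF and cSNX1.3 library, while the cSNX1.3 and EGF libraries overlapped. In edgeR's quasi-likelihood fit, CDH1 rose by 0.47 with erlotinib on the log2 scale (SE 0.08, adjusted p = 2.39e-04). In cSNX1.3 vs. EGF its difference was −0.13 (95% interval −0.31 to 0.04, edgeR adjusted p = 0.419). CDH1 was lower with cSNX1.3 than with erlotinib by a log2 difference of −0.61 (SE 0.08, edgeR adjusted p = 1.35e-05). In the lines CDH1 was at 123, 126 and 122 CPM in WT and at 90.8, 92.0 and 102 CPM in ΔNLS. The lines did not overlap, and CDH1 was lower in ΔNLS, with a log2 fold change of −0.39 (SE 0.07, edgeR adjusted p = 2.79e-04). CDH1 was thus ordered with erlotinib and WT at the top, which overlapped, and with ΔNLS, EGF and cSNX1.3 below, each overlapping its neighbour.

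CDH3 (chr16:68636189-68727468, plus strand, 16 exons) lies next to CDH1 and encodes the cadherin of the basal layer. It was at 73.7, 66.8 and 66.8 CPM in EGF, at 109, 108 and 97.8 CPM with cSNX1.3, and at 95.8, 92.3 and 82.5 CPM with erlotinib. Both treatments lay above EGF without overlap. CDH3 rose by 0.60 on the log2 scale with cSNX1.3 (SE 0.09, edgeR adjusted p = 5.23e-04) and by 0.39 with erlotinib (SE 0.09, edgeR adjusted p = 0.00213). The direct difference of cSNX1.3 and erlotinib was 0.21 (95% interval 0.02 to 0.40, edgeR adjusted p = 0.0544) and did not pass the threshold of 0.05, although the libraries of the 2 groups did not overlap. It passed with DESeq2's test (adjusted p = 0.0398) and in a fit of all 15 libraries (edgeR adjusted p = 0.0226). In the lines CDH3 was at 65.7, 66.4 and 68.6 CPM in WT and at 70.8, 64.7 and 63.7 CPM in ΔNLS. These overlapped, and the interval of the log2 difference was −0.16 to 0.14 (edgeR adjusted p = 0.921). CDH3 and CDH1 therefore rose together with erlotinib, whereas with cSNX1.3 CDH3 passed the test and CDH1 did not, and in ΔNLS CDH1 passed it and CDH3 did not.

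CDH2 was counted 11, 6 and 4 times in the EGF libraries, 8, 3 and 13 times with cSNX1.3, and 2, 10 and 4 times with erlotinib. The 3 drug groups overlapped. Its log2 differences were 0.26 in cSNX1.3 vs. EGF (95% interval −1.12 to 1.64, edgeR adjusted p = 0.879) and −0.51 in erlotinib vs. EGF (95% interval −1.98 to 0.97, edgeR adjusted p = 0.586). In the lines it was counted 7, 12 and 4 times in WT and 0, 1 and 2 times in ΔNLS, and there it did not pass the filter on low counts. Scaled for depth, WT held 7.45 times the CDH2 counts of ΔNLS, with an exact 95% counting interval of 2.25 to 38.8 on 23 and 3 counts. Without the filter, its edgeR adjusted p in ΔNLS vs. WT was 0.0173, and in a fit of all 15 libraries it was 0.0292.

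**Figure D1:**
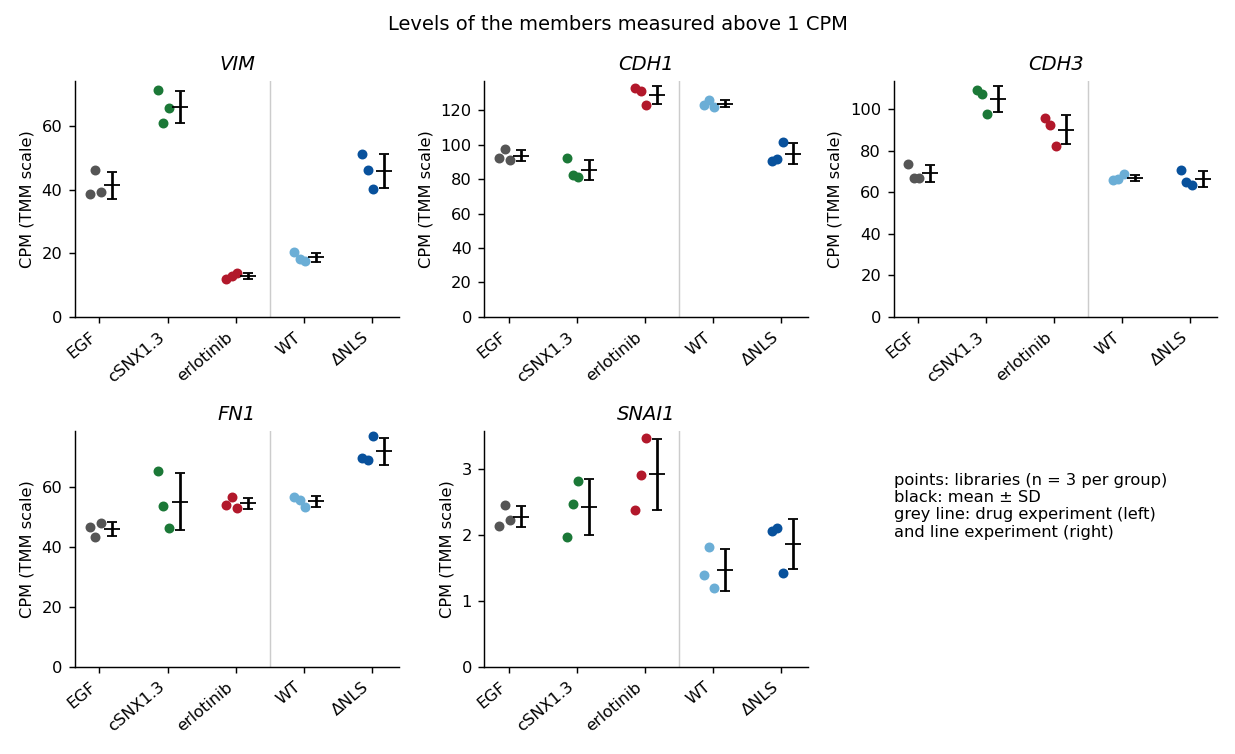
Level of VIM, CDH1, CDH3, FN1 and SNAI1 in CPM on the TMM scale (y axis, from 0) in the 5 groups (x axis), with a point per library and black bars for the mean ± SD. VIM sits at 65.9 CPM with cSNX1.3 and at 12.9 CPM with erlotinib, and CDH1 is highest with erlotinib and in WT.

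VIM (chr10:17228241-17237593, plus strand, 10 exons) was at 38.7, 46.2 and 39.2 CPM in EGF, at 71.1, 61.0 and 65.7 CPM with cSNX1.3, and at 11.95, 12.9 and 13.8 CPM with erlotinib. The 3 drug groups did not overlap, with cSNX1.3 above EGF and erlotinib below it. VIM rose 1.598-fold with cSNX1.3, a log2 fold change of 0.68 (SE 0.10, edgeR adjusted p = 3.87e-04). It was 3.19-fold lower with erlotinib, a log2 fold change of −1.68 (SE 0.10, edgeR adjusted p = 5.48e-09). Between the treatments VIM differed 5.10-fold, with a log2 difference of 2.35 (SE 0.10, edgeR adjusted p = 5.14e-11). In the lines it was at 20.3, 18.2 and 17.7 CPM in WT and at 51.1, 46.2 and 40.3 CPM in ΔNLS. Every ΔNLS library was above every WT library, and VIM was 2.45-fold higher in ΔNLS, a log2 fold change of 1.29 (SE 0.10, edgeR adjusted p = 2.27e-08). VIM was thus higher in each condition made to keep EGFR out of the nucleus than in that condition's own control, and lower under kinase inhibition. Its rise was larger in ΔNLS than with cSNX1.3 by 0.62 (SE 0.14, edgeR adjusted p = 0.00250). WT, the control of ΔNLS, lay below EGF, with means of 18.7 and 41.3 CPM. The part of the preparation of the lines in this was not tested. The order of the levels was cSNX1.3, ΔNLS, EGF, WT and erlotinib, in which ΔNLS and EGF overlapped and all other neighbours were apart.

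FN1 (chr2:215360440-215436073, minus strand, 46 exons) was at 46.9, 43.3 and 48.0 CPM in EGF, at 65.5, 53.6 and 46.4 CPM with cSNX1.3, and at 54.1, 56.8 and 53.0 CPM with erlotinib. The cSNX1.3 libraries were spread over a wider range than any other group and overlapped both others, whereas erlotinib lay above EGF without overlap. The log2 difference from EGF was 0.26 with each treatment (SE 0.11), with an edgeR adjusted p of 0.194 for cSNX1.3 and of 0.0692 for erlotinib, so neither passed the threshold. For erlotinib it passed when all 15 libraries were fitted (edgeR adjusted p = 0.0425) or when cSNX1.3 replicate 1 was left out of the shared fit (edgeR adjusted p = 0.0311). In the lines FN1 was at 56.8, 55.8 and 53.3 CPM in WT and at 69.7, 69.3 and 77.3 CPM in ΔNLS. These groups were apart, and FN1 was higher in ΔNLS by 0.38 on the log2 scale (SE 0.07, edgeR adjusted p = 4.75e-04). FN1 thus passed the test with VIM in ΔNLS and in neither drug comparison.

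**Figure D2:**
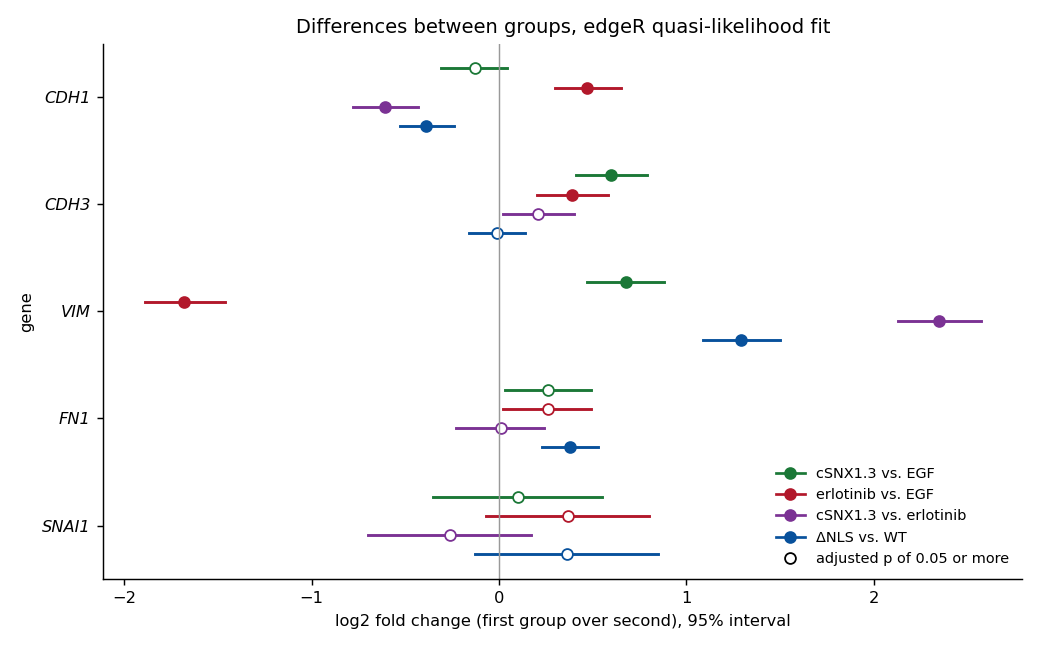
Log2 fold change of CDH1, CDH3, VIM, FN1 and SNAI1 (y axis) in ΔNLS vs. WT, in each treatment against EGF and between the treatments (x axis, first group over second, with 95% intervals), where filled points had an adjusted p under 0.05. VIM lies at −1.68 with erlotinib and at 0.68 and 1.29 with cSNX1.3 and in ΔNLS, and all 4 points of SNAI1 are open.

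The balance of CDH1 and VIM within a library does not depend on library scaling. There were 2.39, 2.11 and 2.33 CDH1 counts per VIM count in EGF, 1.296, 1.36 and 1.24 with cSNX1.3, and 11.1, 10.2 and 8.96 with erlotinib. The lines held 6.07, 6.93 and 6.92 in WT and 1.78, 1.99 and 2.52 in ΔNLS. The ratio was lowest with cSNX1.3 and highest with erlotinib, and ΔNLS lay below WT in every library and overlapped EGF. CDH1 counts per CDH3 count averaged 1.36 ± 0.101 (SD) in EGF, 0.814 ± 0.0393 with cSNX1.3, 1.44 ± 0.0552 with erlotinib, 1.85 ± 0.0629 in WT and 1.43 ± 0.157 in ΔNLS. With cSNX1.3 alone of the 5 groups, CDH3 counts exceeded CDH1 counts in all 3 libraries. CDH1 counts per FN1 count averaged 2.24 ± 0.0634 in WT and 1.32 ± 0.0123 in ΔNLS, which did not overlap.

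**Figure D3:**
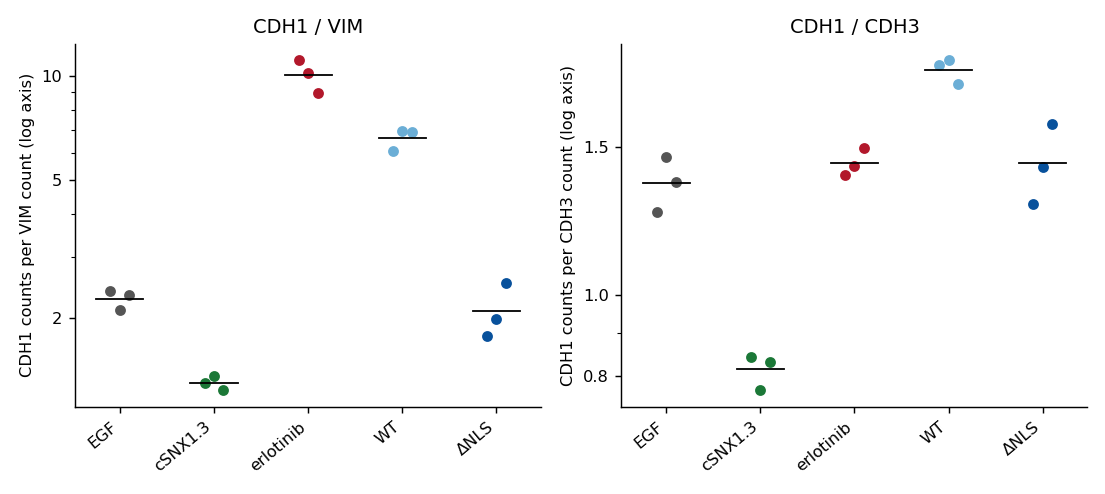
CDH1 counts per VIM count (left) and per CDH3 count (right) on log axes in the 5 groups (x axis), with a point per library and a line at the group mean. CDH1 per VIM averages 10.1 with erlotinib and 1.296 with cSNX1.3, and CDH1 per CDH3 falls under 1 in the cSNX1.3 libraries only.

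SNAI1 (chr20:49982980-49988886, plus strand, 3 exons), which encodes the zinc finger repressor Snail, was the only 1 of the 5 transcription factors that passed the filter on low counts. It was at 2.14, 2.45 and 2.22 CPM in EGF, at 1.97, 2.46 and 2.81 CPM with cSNX1.3, and at 2.37, 2.91 and 3.46 CPM with erlotinib. In the lines it was at 1.39, 1.80 and 1.19 CPM in WT and at 2.05, 2.10 and 1.42 CPM in ΔNLS. The groups overlapped in every comparison. Its log2 differences were 0.10 with cSNX1.3 (95% interval −0.35 to 0.55, edgeR adjusted p = 0.853), 0.37 with erlotinib (−0.07 to 0.80, edgeR adjusted p = 0.166) and 0.36 in ΔNLS (−0.13 to 0.85, edgeR adjusted p = 0.228). Changes of SNAI1 within these intervals were not detectable at this depth.

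ZEB1, a zinc finger and homeodomain repressor of CDH1, was counted 0, 4 and 5 times in EGF, 8, 11 and 6 times with cSNX1.3, 4, 2 and 2 times with erlotinib, 8, 1 and 6 times in WT and 8 times in each ΔNLS library. The cSNX1.3 libraries were above all EGF and erlotinib libraries. Scaled for depth, cSNX1.3 held 2.94 times the ZEB1 counts of EGF (exact 95% counting interval 1.33 to 7.17, 25 and 9 counts) and 3.69 times those of erlotinib (1.62 to 9.48, 25 and 8 counts). Without the filter on low counts, neither passed edgeR's test, with adjusted p of 0.397 and 0.0575. ZEB1-AS1, an antisense RNA that shares 396 exonic bases with ZEB1, had 23 to 126 counts per library, more than ZEB1 itself, and since strand was not used in counting, reads of the shared bases cannot be told apart. Its counts summed to 111 in EGF, 80 with cSNX1.3, 205 with erlotinib, 259 in WT and 333 in ΔNLS.

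ZEB2, the close relative of ZEB1, had 0 to 5 counts per library, with 2, 3 and 5 in EGF, 4, 1 and 3 with cSNX1.3, and 3, 2 and 0 with erlotinib. SNAI2, which encodes Slug, was at 0 in every library but 2 of WT, which had 2 and 1 counts. TWIST1, a basic helix-loop-helix factor, was counted 4, 2 and 8 times in EGF, 3, 8 and 5 times with cSNX1.3, 1, 6 and 2 times with erlotinib, 0 times in all WT libraries and 2, 0 and 2 times in ΔNLS. The drug groups overlapped for ZEB2 and TWIST1. No fold is given where both groups were at or under 3 counts, as for TWIST1 in the lines. A difference in these 3 genes was not detectable at this depth.

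**Figure D4:**
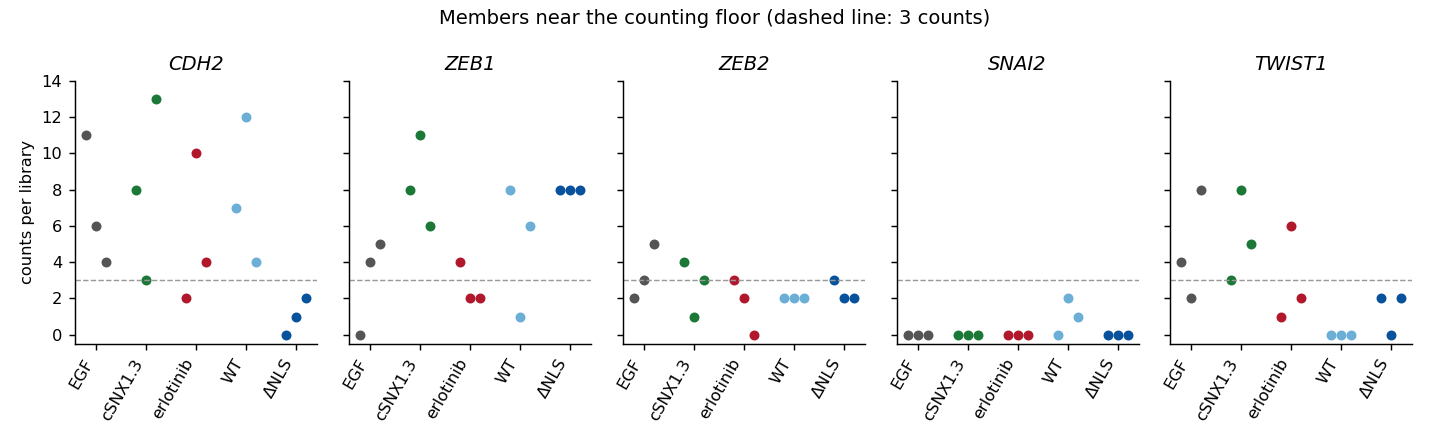
Counts per library (y axis) of CDH2, ZEB1, ZEB2, SNAI2 and TWIST1 in the 5 groups (x axis), with a point per library and a dashed line at 3 counts. No library exceeds 13 counts, CDH2 is at 0 to 2 counts in ΔNLS, and the 3 ΔNLS libraries each have 8 counts of ZEB1.

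Counted over the members, cSNX1.3 vs. EGF called 2 of the 6 that passed the filter (CDH3 and VIM, both higher), where 6.07% of 15738 genes tested were called, 3.38% higher and 2.69% lower. Erlotinib vs. EGF called 3 of 6 (CDH1 and CDH3 higher, VIM lower), where 44.0% of all genes were called, 22.8% higher and 21.2% lower, so the members' share was near that of all genes. In cSNX1.3 vs. erlotinib 2 of 6 were called (VIM higher, CDH1 lower), where 56.1% of all genes were called, 27.6% higher and 28.5% lower. ΔNLS vs. WT called 3 of 5 (VIM and FN1 higher, CDH1 lower), where 41.4% of 15805 genes tested were called, 20.4% higher and 21.0% lower. The groups did not overlap for 2, 4, 3 and 3 of these members in the 4 comparisons, where this held for 25.7%, 52.3%, 60.2% and 52.2% of all genes. CDH2 passed the filter in the drug fit but not in the line fit, and ZEB1, ZEB2, SNAI2 and TWIST1 passed in neither.

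Whether the 2 ways of acting on nuclear EGFR moved the members alike was tested as the ΔNLS effect minus the cSNX1.3 effect in a fit of all 15 libraries, with no library shared by the 2 effects. The difference was called for 2 of 6 members, where it was called for 23.1% of 16524 genes tested, 11.3% higher and 11.8% lower. For VIM it was 0.62, as both effects were upward. For CDH3 it was −0.61 (SE 0.11, edgeR adjusted p = 3.23e-04), since CDH3 rose with cSNX1.3 and had a log2 fold change of −0.01 in ΔNLS. CDH1 differed by −0.25 (95% interval −0.47 to −0.03, edgeR adjusted p = 0.0943) and FN1 by 0.12 (−0.16 to 0.41, edgeR adjusted p = 0.574), and neither passed. CDH2 differed by −3.0 (SE 1.17, edgeR adjusted p = 0.0696), on the few counts given above.

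The 3 genes whose pattern over the 15 libraries was most like that of VIM, among 13403 genes at 1 CPM or more, were TNC, HBEGF and STC1. Their root mean square differences from VIM in centred log2 CPM were 0.229, 0.276 and 0.278, and the median of all genes searched was 0.91. TNC, which encodes the matrix protein tenascin C, averaged 33.6 ± 0.547 CPM (SD) in EGF, 40.7 ± 1.08 with cSNX1.3, 8.10 ± 1.59 with erlotinib, 13.4 ± 1.37 in WT and 36.0 ± 2.27 in ΔNLS. HBEGF, an EGFR ligand, averaged 7.32, 13.8, 1.92, 3.90 and 8.25 CPM in the same order, and STC1, which encodes the secreted glycoprotein stanniocalcin, 62.5, 105, 20.2, 25 and 46.7 CPM. No other member had group means above 1 CPM that spanned 1 or more on the log2 scale, and no such search was made for them.

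Lists of related genes were counted in the same fits, by the number that passed edgeR's test in each direction, and describe the setting of the members. They are read against the 6.07%, 44.0% and 41.4% of all genes tested that were called with cSNX1.3, with erlotinib and in ΔNLS, and nothing is particular to a list from its count. Of the mesenchymal genes other than the members, 1 was higher and 12 lower of 22 tested with erlotinib, and their median on the log2 scale was −0.53 where the median of all genes was 0.01. Among them TAGLN (an actin-binding protein of smooth muscle) had a log2 fold change of −2.10 (edgeR adjusted p = 6.01e-09), TNC −2.03 (3.40e-09) and ITGA5 (the fibronectin receptor subunit) −1.66 (3.56e-08). With cSNX1.3, 5 were higher and 2 lower, and LOX, a collagen crosslinking enzyme, rose by 0.79 (edgeR adjusted p = 0.00573), AXL, a receptor kinase, rose by 0.81 (0.0185), and TAGLN fell by 1.88 (5.58e-07). TAGLN therefore went the other way from VIM with cSNX1.3. In ΔNLS 9 were higher and 9 lower of 25, with LOX at 1.56 (edgeR adjusted p = 1.69e-07), TPM2 at 1.47 (3.15e-08), TNC at 1.43 (4.93e-09), COL5A2 at −1.85 (5.19e-11) and FAP at −1.77 (1.46e-08). VIM and FN1 were thus higher in ΔNLS beside a list that moved both ways.

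Of the EMT transcription factors other than the members, 1 was higher and 10 lower of 17 with erlotinib, with a median of −0.35. HMGA2, a chromatin protein that acts upstream of SNAI1 and TWIST1, was at 2.81 ± 0.184 CPM (SD) in EGF, 9.98 ± 0.715 with cSNX1.3, 0.348 ± 0.197 with erlotinib, 1.69 ± 0.328 in WT and 0.570 ± 0.0450 in ΔNLS. It rose by 1.83 on the log2 scale with cSNX1.3 (edgeR adjusted p = 3.50e-05) and fell by 2.95 with erlotinib (5.81e-07), the directions of VIM, but fell by 1.57 in ΔNLS (1.51e-04), where VIM rose. TWIST2, the relative of TWIST1, was higher in ΔNLS by 0.85 (edgeR adjusted p = 1.44e-04). ETS1 rose by 0.69 with cSNX1.3 (edgeR adjusted p = 5.90e-05), when 3 of the 17 were higher and 4 lower. In ΔNLS 5 were higher and 4 lower, and ID1, an inhibitor of helix-loop-helix factors, fell by 1.28 (edgeR adjusted p = 1.34e-09) while ID4 rose by 1.06 (6.56e-08).

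Of the 21 epithelial junction and identity genes, 0 were higher and 11 lower in ΔNLS by edgeR, with a median of −0.22, which was the direction of CDH1. At an unadjusted p under 0.05, and also by DESeq2, 0 were higher and 13 lower. CLDN1, a tight junction claudin, had a log2 fold change of −1.35 (edgeR adjusted p = 1.75e-09) and MUC1 (a transmembrane mucin) −0.53 (1.53e-05). With erlotinib 6 were higher and 4 lower, and CLDN1 (1.29, edgeR adjusted p = 3.74e-08) and MUC1 (1.10, 5.13e-08) were higher, as was CDH1. With cSNX1.3 1 was higher and 2 lower, and CLDN1 fell by 0.48 (edgeR adjusted p = 0.00611) and TJP3 by 0.62 (7.86e-04).

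Of the epithelial regulators, which include transcription and splicing factors, 7 were higher and 1 lower of 14 with erlotinib (median 0.21) and 1 was higher and 7 lower in ΔNLS (median −0.24). EHF, an epithelial ETS factor, rose by 0.90 with erlotinib (edgeR adjusted p = 3.36e-06) and fell by 0.78 in ΔNLS (5.62e-07), and KLF5 and TP63 fell by 0.87 and 1.10 in ΔNLS (3.69e-08 and 1.87e-05). GRHL3, a grainyhead factor of epidermal barrier formation, rose by 1.64 with erlotinib (edgeR adjusted p = 6.34e-07) and fell by 1.47 with cSNX1.3 (2.19e-04), but rose by 0.43 in ΔNLS (0.0198). With cSNX1.3 3 of the 14 were higher and 1 lower. Those higher were MIR200CHG (0.90, edgeR adjusted p = 0.0260), KLF4 (0.53, 0.00365) and MIR205HG (0.33, 0.0445). MIR200CHG was also higher with erlotinib (0.71, edgeR adjusted p = 0.0185).

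Among the partners of the cadherins, CTNNB1 (β-catenin, which binds the cadherin tail) fell by 1.38 on the log2 scale with erlotinib (SE 0.11, edgeR adjusted p = 1.18e-07), from 799 ± 103 to 305 ± 8.87 CPM, while CDH1 rose. Of 14 catenins and adherens junction partners, 1 was higher and 5 lower with erlotinib, 4 higher and 5 lower in ΔNLS, and 0 were called with cSNX1.3 (1 at an unadjusted p under 0.05 in edgeR, 0 by DESeq2). These are 42.9%, 64.3% and 0% of the 14, so the share with erlotinib was near that of all genes. LIMA1, an actin-binding protein, fell by 1.07 in ΔNLS (edgeR adjusted p = 2.74e-09). Of the desmosomal genes, 5 were higher and 3 lower of 9 with erlotinib, 0 higher and 4 lower of 8 in ΔNLS, and 2 higher and 0 lower of 9 with cSNX1.3. The counts of 0 were also 0 by DESeq2 and at an unadjusted p under 0.05. DSC3, a desmosomal cadherin, rose by 1.20 with erlotinib (edgeR adjusted p = 1.87e-07), and DSG2, another, fell by 0.65 in ΔNLS (1.02e-06) and rose by 0.33 with cSNX1.3 (0.0275). Of 20 other cadherins listed 4 passed the filter in the drug fit and 3 in the line fit, of which 2 were higher with erlotinib and 2 in ΔNLS, with CDH24 at 0.78 in ΔNLS (edgeR adjusted p = 1.02e-05).

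In the TGF-beta pathway, a major inducer of EMT, 5 of 28 genes were higher and 0 lower with cSNX1.3 (1 lower at an unadjusted p under 0.05 in edgeR, 0 by DESeq2), 7 higher and 13 lower with erlotinib (median −0.39), and 5 higher and 12 lower in ΔNLS (median −0.16). INHBA, which encodes an activin subunit, rose by 0.48 with cSNX1.3 (edgeR adjusted p = 0.00569), fell by 1.87 with erlotinib (1.60e-09) and was 2.82-fold lower in ΔNLS (5.20e-08). SMAD3, the signal transducer, rose by 0.47 with cSNX1.3 (edgeR adjusted p = 0.00543), as did SMURF2 by 0.53 (0.00214). In ΔNLS TGFBR2, the type II receptor, fell by 0.97 (edgeR adjusted p = 3.91e-08). TGFB1 rose there by 0.67 (1.66e-05), SMAD6 by 0.49 (0.00291) and SMAD7 by 0.36 (0.0165). Whether signalling through the pathway changed was not tested. Of 19 corepressors and turnover factors of SNAI and ZEB proteins, 0 were called with cSNX1.3 (2 at an unadjusted p under 0.05 in edgeR, 0 by DESeq2), 1 was higher and 5 lower with erlotinib, and 2 were higher and 1 lower in ΔNLS, with the histone methyltransferase EZH2 at 0.70 (edgeR adjusted p = 3.31e-07). The shares called, 31.6% with erlotinib and 15.8% in ΔNLS, lay below those of all genes. Of 15 genes of cadherin processing and endocytosis, 0 were called with cSNX1.3 (1 at an unadjusted p under 0.05 in edgeR, 0 by DESeq2), 4 were higher and 3 lower with erlotinib, and 2 were higher and 6 lower in ΔNLS, with ADAM10, the protease that sheds CDH1, at −0.72 (edgeR adjusted p = 4.53e-07).

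**Figure D5:**
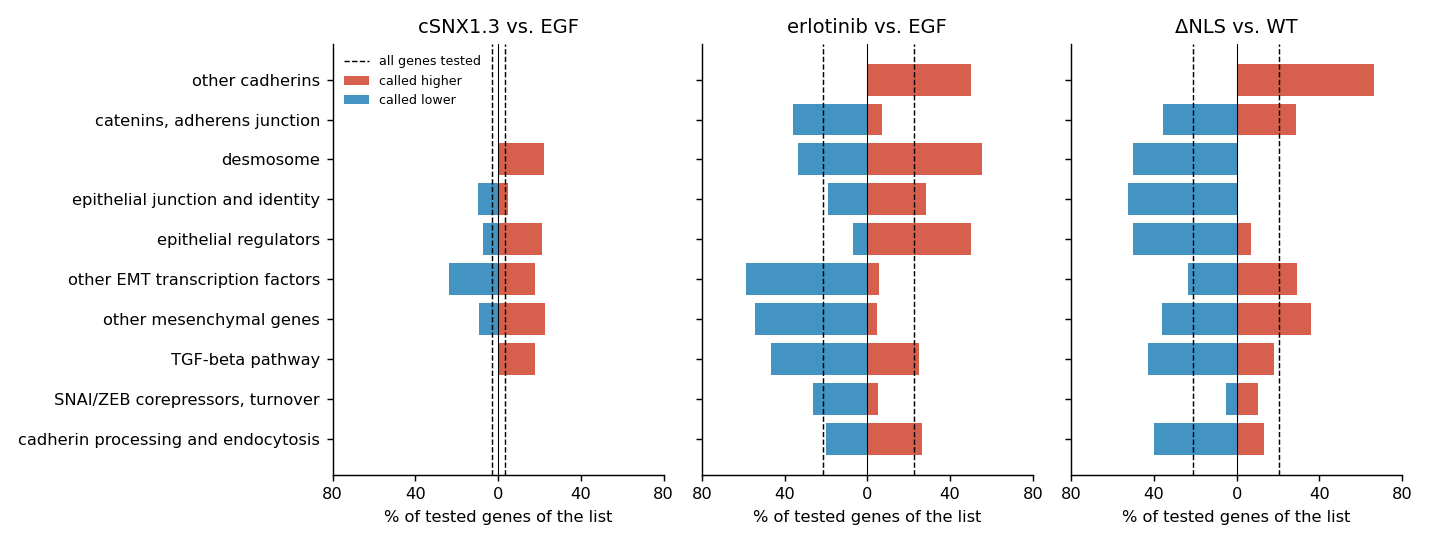
Percent of the tested genes of each list (y axis) called higher (red, to the right) and lower (blue, to the left) in ΔNLS vs. WT and in each treatment against EGF (x axis), with dashed lines at the share of all genes tested. The mesenchymal list has 12 of 22 genes lower with erlotinib, and the epithelial junction list has 11 of 21 lower and none higher in ΔNLS.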

How the data were processed

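RNA of MDA-MB-468 cells was measured in 15 libraries, 3 in each of 5 groups taken from the sample labels. The authors deposited raw counts of read pairs for 61552 Ensembl genes, made per their methods with TrimGalore, STAR on GRCh38 and featureCounts, which was not set to use strand. The annotation release is not given in the sources used here. Of the IDs, 61399 matched GENCODE 44 and 153 did not. Reads of the bases shared by overlapping genes on opposite strands cannot be told apart, and the sources do not say how such reads were assigned. VIM-AS1 shares 656 exonic bases with VIM and had 12 to 57 counts per library, and CDH3-AS1 shares 537 with CDH3 and had 2 to 20.

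Here, edgeR 4.0.16 in R 4.3.3 was used with TMM scaling, filterByExpr by group, robust quasi-likelihood fits and Benjamini-Hochberg adjustment over all genes tested, with a threshold of 0.05. The 9 drug libraries and the 6 line libraries were fitted apart, and the interaction was fitted in all 15. The alternatives were DESeq2's size factors, DESeq2 1.42.0, 2 other filters, other sets of libraries, a threshold of 0.01, leaving out each replicate in turn, and a block for the replicate number. Counts of low members were compared by exact counting intervals, which do not cover the spread between cultures. Chi-square values per degree of freedom between replicates were 2.20 to 15.5, above sampling noise. The members and lists were chosen with earlier results of these data known. The genes named are the 10 members, EGFR, genes overlapping a member, the 3 genes nearest to a varying member, and in each list and comparison up to 3 rises and 3 falls among called genes of at least 1 CPM with groups that did not overlap; values of a gene so named are also given in other comparisons. Not every gene named by this rule is reported here.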

Additional observations from a re-analysis of the deposited data

Results flagged for a closer look

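The effects of ΔNLS and of cSNX1.3 differed for 2 members. For CDH3 the ΔNLS effect minus the cSNX1.3 effect was −0.61 on the log2 scale, with CDH3 at 66.9 ± 1.48 CPM (SD) in WT and 66.4 ± 3.84 in ΔNLS, and at 69.1 ± 3.95 in EGF and 105 ± 6.22 with cSNX1.3. For VIM it was 0.62, with 18.7 ± 1.40 CPM in WT and 45.9 ± 5.41 in ΔNLS, and 41.3 ± 4.199 in EGF and 65.9 ± 5.09 with cSNX1.3. Both differences are listed because the interaction passed edgeR's test, and the 2 effects come from cells prepared in different ways, which cannot be told apart from the difference itself.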

How the results depend on the processing

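No call of a member that passed edgeR's test was lost under any alternative run, and its direction was kept. The count of genes called in cSNX1.3 vs. EGF, 956, was 470 at an adjusted p under 0.01 and 1444 in a fit of all 15 libraries, and the count for the ΔNLS effect minus the cSNX1.3 effect, 3819, was 2359 at an adjusted p under 0.01. Without 1 replicate, genes called ranged from 526 to 1039 in cSNX1.3 vs. EGF (526 when cSNX1.3 replicate 2 was left out, 531 for EGF replicate 1 and 592 for EGF replicate 3), from 5661 to 7453 in erlotinib vs. EGF, from 7718 to 9282 in cSNX1.3 vs. erlotinib, from 5191 to 6559 in ΔNLS vs. WT and from 3106 to 4167 for the interaction. FN1 in erlotinib vs. EGF also passed with at least 10 counts in every library (adjusted p = 0.0488), with only the 2 groups fitted (0.0393) and without cSNX1.3 replicate 3 (0.0499). CDH3 in cSNX1.3 vs. erlotinib also passed with DESeq2's size factors (0.0454) and without EGF replicate 2 (0.0469), cSNX1.3 replicate 3 (0.0416) or erlotinib replicate 1 (0.0375). CDH2 in the interaction passed without cSNX1.3 replicate 2 (−3.37, adjusted p = 0.0443) or WT replicate 3 (−3.37, 0.0473). Differences that were never called changed sign on the log2 scale: without 1 replicate, CDH2 ranged from −0.17 to 0.78 in cSNX1.3 vs. EGF and from −1.43 to 0.02 in erlotinib vs. EGF, SNAI1 from −0.03 to 0.23 in cSNX1.3 vs. EGF, and CDH3 from −0.06 to 0.02 in ΔNLS vs. WT. FN1 in cSNX1.3 vs. erlotinib, 0.01, was −0.02 with at least 10 counts in every library and ranged from −0.13 to 0.12 without 1 replicate. HBEGF in the interaction ranged from −0.07 to 0.41. The cause was not tested. Replicate numbers are shared between groups. Deviations of same-numbered libraries from their group means correlated between −0.2 and 0.248, and those of differently numbered libraries between −0.324 and 0.375. With 3 libraries per group, these values cannot decide whether libraries of different groups were prepared together. With the replicate number as a block, genes called were 841 in cSNX1.3 vs. EGF, 6707 in erlotinib vs. EGF, 8643 in cSNX1.3 vs. erlotinib, 5766 in ΔNLS vs. WT and 3922 in the interaction, members called stayed at 2, 3, 2, 3 and 2, and FN1 in cSNX1.3 vs. erlotinib was −0.00. At this depth CDH2, ZEB1, ZEB2, SNAI2 and TWIST1 were limited by counting.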
